A study of Mus musculus with 4 samples.

Results

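The Grainyhead-like genes *Grhl1*, *Grhl2* and *Grhl3* were taken from a droplet-based single-cell RNA-seq series of mouse embryos by their gene symbols, which gave 3 of the 31055 genes in the count matrices. The series compared WT embryos with *Grhl3*-null embryos at E8.5, and the caudal portion of the embryo was dissociated. Each genotype was represented by 1 pool of embryos, 5 for WT and 3 for *Grhl3*-null, and each pool was loaded as 2 libraries. All embryos came from *Grhl3* heterozygous intercrosses on a C57BL/6 background, and the null embryos lacked *Grhl3* in every cell because the allele is constitutive. The 2 libraries of a genotype share their embryos, so the p-values below set 1 pool against another and carry nothing of the variation from embryo to embryo.

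Grainyhead-like proteins are transcription factors of epithelia. They bind a short shared DNA motif as dimers, with themselves or with one another, and they are known for switching on cell junction, barrier and protease-pathway genes in surface epithelia. *Grhl3* is known for its part in neural tube closure and epidermal barrier formation, *Grhl2* for closure of the neural tube and for epithelial cell junctions, and *Grhl1* for desmosomal adhesion in the epidermis.

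After filters on genes, UMIs and mitochondrial share, 20198 of 24239 deposited cells remained, with 4781 to 5459 cells and median depths of 33391 to 38070 UMIs per cell in the 4 libraries. Any pair of libraries shared 5 to 7 barcodes among the kept cells. Clustering gave 16 clusters, and markers chosen for each cell type named 14 classes that held 19673 cells. In the class called surface ectoderm and neural plate border-like, hereafter the surface ectoderm class, 14 of 15 markers of that type stood among the 30 leading genes. This count gave the class its name and is no separate test of its identity. *Grhl2* and *Grhl3* were among the genes used for clustering, so their concentration in a class is a description and was not tested; leaving all 3 genes out of the clustering moved each mean level in the surface ectoderm and gut-like classes by less than 1 SD.

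On mm10, *Grhl1* (ENSMUSG00000020656) lies on chromosome 12 from 24572283 to 24617391 on the plus strand, and *Grhl2* (ENSMUSG00000022286) on chromosome 15 from 37233036 to 37363569 on the plus strand. *Grhl3* (ENSMUSG00000037188) lies on chromosome 4 from 135541888 to 135573630 on the minus strand. No stretch of 50 bases was shared between annotated transcripts of the 3 genes, so a read of that length could not be split between them. RefSeq promoter windows were at hand for *Grhl1* and *Grhl3* and for 43 of the 61 genes listed for this family and its targets. A set of 4 upstream sequences, from 250 bases before the start up to the start on the strand of the gene in GRCm38.p6, are shown because they belong to the members and to the listed genes that carried the Grainyhead letters AACNGGTT, in which N is any base. Capitals mark the letters GCCNNNGGC of the AP-2 factors in the members and AACNGGTT, on either strand, in the targets. A second *Grhl1* window, chr12:24580469-24580718 on the plus strand, held no match to the AP-2 letters and is not printed.
Grhl3, chr4:135573633-135573882, minus strand: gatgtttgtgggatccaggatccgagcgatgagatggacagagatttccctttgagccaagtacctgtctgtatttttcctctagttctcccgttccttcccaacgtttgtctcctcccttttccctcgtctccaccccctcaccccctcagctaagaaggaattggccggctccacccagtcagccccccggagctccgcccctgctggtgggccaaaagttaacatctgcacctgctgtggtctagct
Grhl1, chr12:24572037-24572286, plus strand: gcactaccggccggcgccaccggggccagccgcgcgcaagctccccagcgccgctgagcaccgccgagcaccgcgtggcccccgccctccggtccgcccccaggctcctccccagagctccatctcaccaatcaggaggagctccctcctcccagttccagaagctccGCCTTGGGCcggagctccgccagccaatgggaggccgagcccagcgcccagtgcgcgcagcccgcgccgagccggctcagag
Sfn, chr4:133602169-133602418, minus strand: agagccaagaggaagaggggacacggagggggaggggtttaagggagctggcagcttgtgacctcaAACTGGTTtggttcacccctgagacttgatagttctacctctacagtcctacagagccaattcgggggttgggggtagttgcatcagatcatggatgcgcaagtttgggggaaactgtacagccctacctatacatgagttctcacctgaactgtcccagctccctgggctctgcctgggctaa
Rab25, chr3:88548280-88548529, minus strand: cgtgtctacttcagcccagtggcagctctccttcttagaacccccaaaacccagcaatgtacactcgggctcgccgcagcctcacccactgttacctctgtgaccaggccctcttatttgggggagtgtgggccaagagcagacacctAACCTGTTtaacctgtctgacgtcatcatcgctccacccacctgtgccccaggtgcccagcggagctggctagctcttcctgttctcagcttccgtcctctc

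The match in *Sfn*, which codes for the 14-3-3 protein sigma of stratifying epithelia, began 184 bases before the start. The match in *Rab25*, an epithelial vesicle-trafficking GTPase, began 102 bases before it and lay on the opposite strand. AACNGGTT on both strands was found in 686 of 32851 promoter windows, or 2.09%, and in 2 of the 43 listed genes with a window, or 4.65%. The AP-2 letters were found in 16.6% of all windows and in 16 of the 43 listed genes, or 37.2%. A gene with more than 1 window counted once if any matched, so shares by gene and by window are not alike. Neither the *Grhl3* nor the *Grhl1* windows held AACNGGTT, and these letters alone say nothing about where any factor was bound.

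In WT embryos the 3 genes overlapped in the surface ectoderm and parted elsewhere. *Grhl3* was highest in the surface ectoderm class, with a trail through the neuromesodermal progenitors and the neuroepithelium, where *Grhl2* was close to background. *Grhl2* was high in the surface ectoderm and also in the gut-like class, where *Grhl3* was low. *Grhl1* was the lowest of the 3 in the surface ectoderm class. Levels are given in CPM, the UMIs of a gene scaled by all UMIs of the class in a library, a unit that does not scale with transcript length in data counted from one end of the transcript, although the capture of each gene can differ.

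*Grhl2* reached 35.0 and 38.8 CPM in the surface ectoderm class of WT replicates 1 and 2, a mean of 36.9 ± 2.66 (SD, n = 2). It reached 23.6 and 21.9 CPM (22.7 ± 1.18) in the gut-like class, below both surface ectoderm values. The next class, intermediate mesoderm-like, held 1.01 ± 0.132 CPM, and the classes from there down to the endothelium-like class could not be ordered, as each overlapped its neighbour. The surface ectoderm and gut-like classes together took most of the gene: 50.7% and 57.7% of all *Grhl2* UMIs of the WT libraries came from the first, and 37.5% and 34.0% from the second.

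*Grhl3* reached 32.8 and 26.2 CPM in the surface ectoderm class of the WT libraries (29.5 ± 4.68). The primordial germ cell-like class followed at 8.10 CPM on 6 UMIs in all, and it overlapped the neuromesodermal progenitor-like class at 6.41 ± 0.936. The neuroepithelium-like class stood at 4.11 ± 0.155 and the somitic mesoderm-like class at 1.31 ± 0.00389, each without overlap with the next class. Gut-like cells gave 1.30 and 1.00 CPM of *Grhl3*, which overlapped the erythroid-like class at 0.903 ± 0.566, a cell type in which the gene is not known to act. The endothelium-like class held 0.565 ± 0.381 CPM of *Grhl3* and 0.50 ± 0.0792 CPM of *Grhl2*.

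*Grhl1* was sparse everywhere. The surface ectoderm class held 26 UMIs in each WT library, or 1.96 and 2.09 CPM (2.03 ± 0.0947), and the gut-like class 24 and 17 UMIs, or 1.65 and 1.31 CPM (1.48 ± 0.236). The values for the notochord-like class (1.51 ± 0.842) lay across both, and the primordial germ cell-like class headed the order at 3.18 CPM on only 2 UMIs. Below these, *Grhl1* stood at 0.816 ± 0.0556 CPM in the mesenchyme 1-like class, without overlap with the gut-like class, and no *Grhl1* UMI was found in the WT endothelium-like class.

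**Figure D1:**
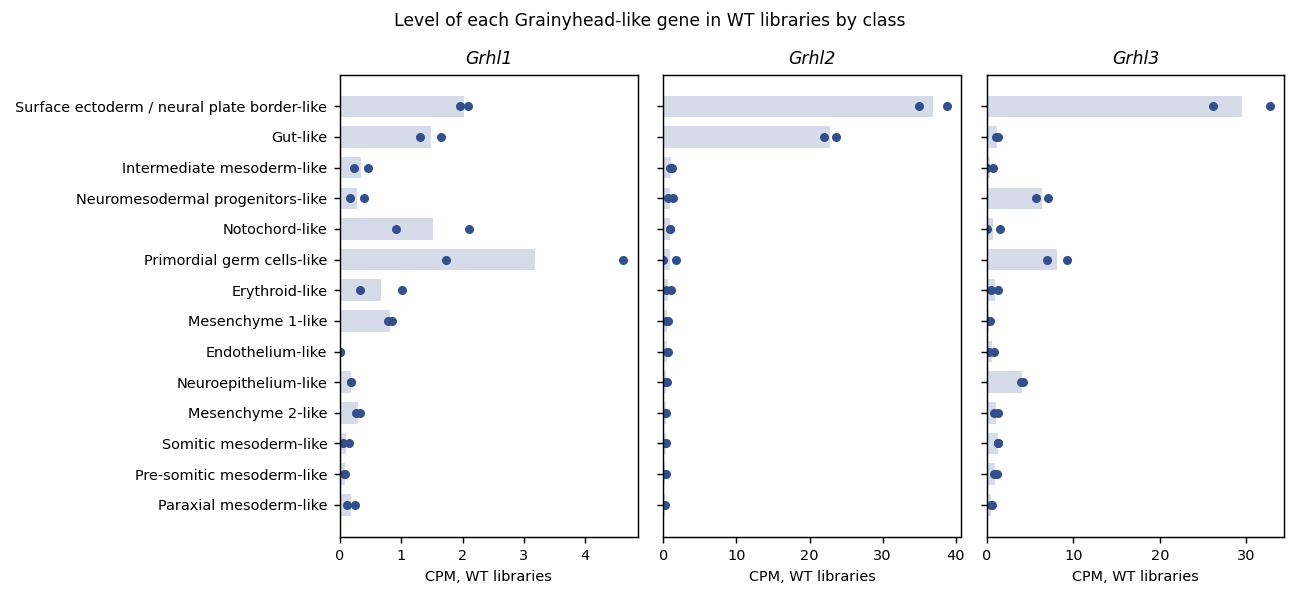
Level of *Grhl1*, *Grhl2* and *Grhl3* in CPM (UMIs scaled by library total, horizontal axes, which differ between panels) in the 14 named classes of the WT libraries, ordered by *Grhl2*; points are the 2 libraries and bars their mean. *Grhl2* stands out in the surface ectoderm class (36.9) and the gut-like class (22.7), whereas *Grhl3* is highest in the surface ectoderm class (29.5) and reads 1.15 in the gut-like class.

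The makeup of the family changed from class to class. Summed over the 3 genes, the WT surface ectoderm class held 68.4 ± 1.92 CPM, of which 54.0% ± 5.41 was *Grhl2*, 43.0% ± 5.63 *Grhl3* and 2.96% ± 0.222 *Grhl1* (SD, n = 2). *Grhl2* made up 89.7% ± 1.10 of 25.4 ± 1.62 CPM in the gut-like class. *Grhl3* made up 88.9% ± 3.13 of 4.62 ± 0.0112 CPM in the neuroepithelium-like class, and in the neuromesodermal progenitor-like class 84.1% ± 9.15 of 7.61 ± 0.286 CPM.

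The same contrast showed in the share of cells with at least 1 UMI. A *Grhl2* UMI was found in 69.2% of 250 surface ectoderm cells of WT replicate 1 (95% Clopper-Pearson interval 63.1 to 74.9) and in 70.6% of 221 cells of replicate 2 (64.1 to 76.5). A *Grhl3* UMI was found in 49.6% (43.2 to 56) and 52.0% (45.2 to 58.8), and a *Grhl1* UMI in 8.80% (5.60 to 13.0) and 10.9% (7.08 to 15.7). Gut-like shares were 53.8% and 50.6% for *Grhl2* and 5.73% and 4.94% for *Grhl3*. The endothelium-like class, taken as the level that free RNA can give, had *Grhl2* in 1.97% and 1.94% of cells and *Grhl3* in 1.32% and 1.29%, at median depths of 38962 and 35643 UMIs against 41464 and 42197 in the surface ectoderm class. The neuroepithelium-like shares of *Grhl2*, 1.68% and 1.00%, were below these. The intervals cover counting error only.

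Within the surface ectoderm class, most cells with *Grhl3* also held *Grhl2*. Of the 250 and 221 WT cells, 88 and 82 held *Grhl2* with *Grhl3*, a further 13 and 17 held all 3 genes, 65 and 51 held *Grhl2* alone, 22 and 16 held *Grhl3* alone, and 53 and 48 held none. The share with *Grhl2* was 81.5% and 86.1% where *Grhl3* was detected, against 57.1% and 53.8% where it was not. Cells with *Grhl3* were, however, the deeper ones, with median depths of 62360 and 64008 UMIs against 33121 and 31554. When each cell was thinned to 7500 UMIs, the *Grhl2* shares became 17.1% and 16.2% where *Grhl3* was detected and 22.3% and 20.1% where it was not, with overlapping intervals. As a level, *Grhl2* stood at 35.6 and 41.0 CPM in cells with *Grhl3* and at 34.1 and 34.3 CPM in cells without, higher with *Grhl3* in each library. With 2 libraries this was not tested. Per cell, the correlation of the 2 normalised levels was weak, at r = 0.0574 over 250 cells and 0.106 over 221 cells that share a library and differ in depth.

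**Figure D2:**
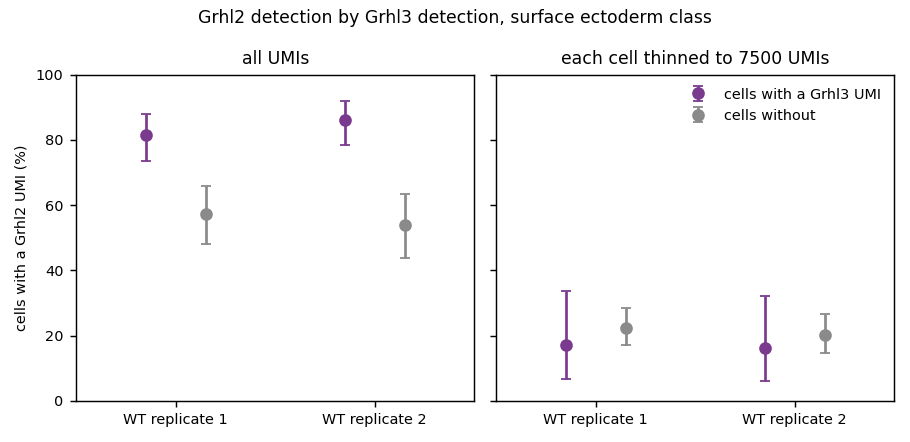
Share of surface ectoderm cells with a *Grhl2* UMI (vertical axis, percent) among cells with and without a *Grhl3* UMI in each WT library, with all UMIs (left) and with each cell thinned to 7500 UMIs (right); bars are 95% Clopper-Pearson intervals. With all UMIs the shares are 81.5% and 86.1% against 57.1% and 53.8%, and after thinning the intervals overlap.

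Within the class, *Grhl3* was higher in cells with the AP-2 gene *Tfap2c*, a transcription factor known from the neural plate border. In WT surface ectoderm cells with a *Tfap2c* UMI, *Grhl3* stood at 42.6 and 32.7 CPM, and in cells without one at 7.98 and 9.02 CPM. *Grhl2* differed less between the same cells, at 37.7 and 42.8 CPM against 28.2 and 28.2 CPM. The split is a description, since a UMI of *Tfap2c* is itself more often found in deeper cells, with median depths of 61646 and 58120 UMIs against 32126 and 29588.

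Over the 14 WT classes the pattern of each member was compared with that of all genes reaching 5 CPM in any class, by Pearson correlation of log2(CPM + 1). *Grhl2* was most like *Prss8* (r = 0.985), which codes for the epithelial protease prostasin, and *Arhgef19* (0.984), a guanine nucleotide exchange factor, followed by *Trim29*, *Tmem184a* and *Bnipl*. *Grhl3* was most like *Dlx5* (0.955), a homeobox gene of the neural plate border, followed by *Mapk4*, *Cbs*, *Dlx3* and *Slc7a3*. *Grhl1* was most like *Cdc42bpg* (0.953), followed by *Elf3*, *Sra1*, *Atp6v1f* and *Lrpap1*, but its highest class rests on 2 UMIs and several others on 3 or fewer, so that this order rests on values near the floor of 3 UMIs. Between the members the correlation was 0.545 for *Grhl2* and *Grhl3*, 0.58 for *Grhl1* and *Grhl2* and 0.503 for *Grhl1* and *Grhl3*. *Grhl2* ranked 471 among 11580 genes by likeness to *Grhl3*.

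The first question across genotypes was whether the labels held. *Grhl3* fell from 3.87 and 3.64 CPM over all WT cells to 0.0531 and 0.0667 CPM in the *Grhl3*-null libraries, a log2 difference of -5.99 (edgeR adjusted p = 4.6e-07), where 35.5% of the genes tested were called in either direction. The null libraries held 26 *Grhl3* UMIs in 23 cells, at most 2 in a cell, and none of these cells shared a barcode with a kept WT cell. *Grhl3* dropped in the surface ectoderm class from 435 and 325 UMIs to 3 and 4, a log2 difference of -6.69 ± 0.245 (SE, edgeR adjusted p = 4.67e-14), in a comparison that called 8.5% of genes lower. *Grhl3* was called lower in all 7 classes in which it passed the filter on low counts, among 12 classes fitted. The null libraries held too few *Grhl3* UMIs to pass that filter, so these classes entered through WT alone and the direction was fixed in advance. Some of these classes were also low in WT. The paraxial mesoderm-like class (0.521 ± 0.103 CPM) overlapped the endothelium-like class (0.565 ± 0.381). The mesenchyme 2-like (1.07 ± 0.290) and gut-like (1.15 ± 0.212) classes overlapped the erythroid-like class (0.903 ± 0.566). The part of free RNA in these WT values was not tested. Genes called lower made up 10.2% of those tested in the gut-like, 12.8% in the neuroepithelium-like, 10.8% in the neuromesodermal progenitor-like, 9.99% in the mesenchyme 2-like, 9.17% in the somitic and 11.9% in the paraxial mesoderm-like class. For the gut-like class, 32 WT UMIs stood against 0 in the null libraries, so that *Grhl3* was at least 13.7-fold lower when 3 UMIs over both null libraries are taken as the floor. Where the counted transcript ends lie relative to the deleted sequence is not given in the sources used here.

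No change of *Grhl1* or *Grhl2* passed the test in the surface ectoderm class, where *Grhl3* is normally highest. *Grhl2* stood at 35.0 and 38.8 CPM in the WT libraries and at 35.4 and 34.3 CPM in the *Grhl3*-null libraries, so that the groups overlapped. The log2 difference was -0.12 with a 95% interval of -0.29 to 0.05 (edgeR adjusted p = 0.372, 14.5% of genes called). A *Grhl2* UMI was found in 67.2% and 62.4% of null cells, against 69.2% and 70.6% in WT, and after thinning in 22.1% and 21.7%, against 21.6% and 19.5%. *Grhl1* stood at 1.96 and 2.09 CPM in WT and at 1.36 and 2.17 CPM in the null libraries, a log2 difference of -0.25 with a wide interval of -0.92 to 0.41 (edgeR adjusted p = 0.674). With *Grhl3* gone and the paralogues at these levels, the summed family level in the class was 36.9 ± 0.186 CPM in null embryos against 68.4 ± 1.92 CPM in WT, and *Grhl2* made up 94.4% ± 1.82 of it.

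Neither paralogue passed the test in the gut-like class. *Grhl2* stood at 23.6 and 21.9 CPM in WT and at 23.9 and 25.4 CPM in the *Grhl3*-null libraries, all null values above all WT values but by little, with a log2 difference of 0.08 and an interval of -0.09 to 0.24 (edgeR adjusted p = 0.548, 20% of genes called). *Grhl1* stood at 1.65 and 1.31 CPM in WT and at 1.57 and 2.45 CPM in the null libraries, a log2 difference of 0.40 with an interval of -0.24 to 1.04 (adjusted p = 0.406). The genotype differences of the surface ectoderm and gut-like classes did not part by the test of their difference, at -0.20 for *Grhl2* (edgeR adjusted p = 0.312) and -0.65 for *Grhl1* (0.423), in a comparison that called 9.13% of genes. In the gut-like class 8 visceral endoderm markers summed to 446 and 510 CPM in WT and to 1048 and 1014 CPM in the null libraries. Much of each sum was *Ttr*, at 169 and 248 CPM in WT and 506 and 492 CPM in null. *Ttr*, *Apoa1*, *Afp* and *Apom* were also leading genes of the gut-like class itself. The sums thus do not show a different makeup of cells. The part of the markers in the *Grhl1* and *Grhl2* values was not tested. Over all cells, *Grhl2* stood at 4.05 and 3.78 CPM in WT and at 4.43 and 4.47 CPM in the null libraries, a log2 difference of 0.15 with an interval of 0.03 to 0.28 (edgeR adjusted p = 0.0653). The gut-like class, which holds much of the *Grhl2*, counted 279 and 243 WT cells against 402 and 385 null cells, and in such sums more cells of a type and more RNA per cell cannot be told apart.

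The neuroepithelium-like class was the only one of 12 in which a paralogue was called, among 5 classes where *Grhl2* could be tested and 4 where *Grhl1* could. *Grhl2* gave 10 and 5 UMIs in 537 and 499 WT cells and 34 and 23 UMIs in 619 and 673 *Grhl3*-null cells. The levels were 0.440 and 0.229 CPM against 1.31 and 0.871 CPM, without overlap, and the log2 difference was 1.65 ± 0.404 (SE) with an interval of 0.80 to 2.51 (edgeR adjusted p = 0.0059), where 24.0% of genes were called and 11.1% called higher. With so few WT UMIs, *Grhl2* passed the filter on low counts in this class only through the null libraries, which favoured a higher call in advance. The call rested on few counts: it was lost with DESeq2 (adjusted p = 0.129), without WT replicate 2 (0.0849) and without *Grhl3*-null replicate 1 (0.0793). It also depended on where the class was bounded. At a finer clustering resolution of 0.8 the log2 difference was 0.40 (adjusted p = 0.757). The cells of the class that then formed a cluster led by *Gadd45a*, *Pax3*, *Foxd3* and *Tfap2b*, genes of the dorsal neural tube and neural crest, held 20 and 9 *Grhl2* UMIs in 136 and 134 null cells against 1 and 0 in 48 and 40 WT cells. In the cells that stayed with *Pax6* and *Nkx6-1*, genes of the neural tube proper, *Grhl2* stood at 0.736 and 0.291 CPM in WT and at 0.758 and 0.628 CPM in null. A cluster named no cell type held 211 and 195 WT cells of the class but 1 and 2 null cells, with 5.70 and 7.49 CPM of *Grhl3* and 0.116 and 0.258 CPM of *Grhl2* in WT. The levels of the null libraries in the whole class remained far below the gut-like or surface ectoderm values.

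Elsewhere the paralogues were low and not called. In the neuromesodermal progenitor-like class, the second broad site of *Grhl3*, *Grhl2* stood at 1.26 and 0.575 CPM in WT and at 0.536 and 0.733 CPM in null (log2 difference -0.58, edgeR adjusted p = 0.318, 18.5% of genes called), while *Grhl3* dropped from 5.74 and 7.07 to 0.141 and 0.133 CPM. In the mesenchyme 1-like class *Grhl1* had a log2 difference of -0.76 (edgeR adjusted p = 0.208, 6.77% of genes called).

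**Figure D3:**
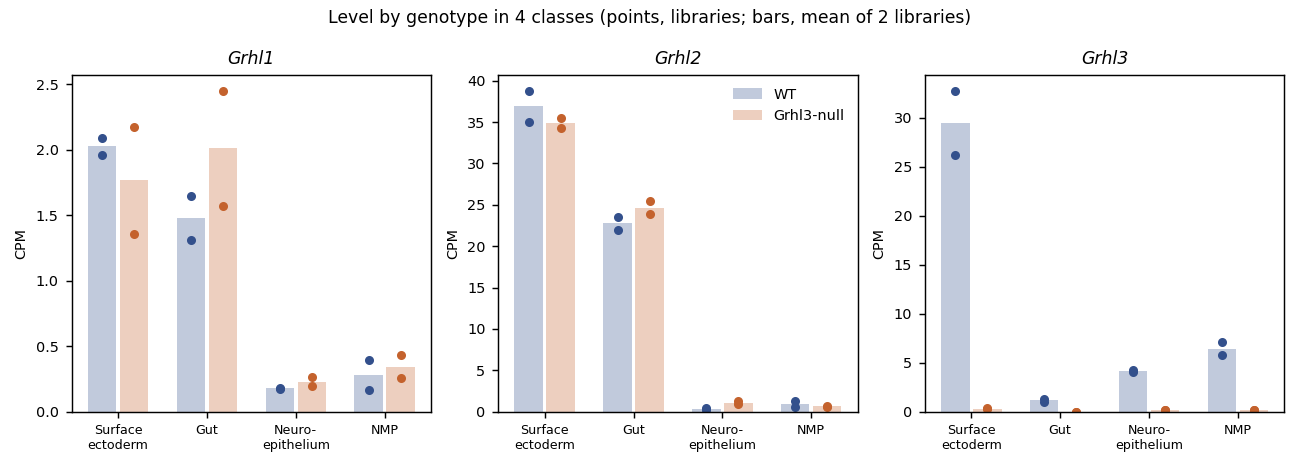
Level of the 3 genes in CPM (UMIs scaled by library total, vertical axes, which differ between panels) in WT and *Grhl3*-null libraries for 4 classes; points are libraries and bars the mean of 2 libraries. *Grhl3* is near 0 in every null library, and *Grhl2* in the surface ectoderm class reads 35.0 and 38.8 in WT against 35.4 and 34.3 in null.

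The sex of the cells, called from *Xist* and Y-linked UMIs, split the *Grhl2* values. The WT pool gave 1259 and 1206 male and 3488 and 3263 female cells, and the *Grhl3*-null pool 2278 and 2300 male and 1821 and 1700 female cells, and male and female cells come from different embryos. In male surface ectoderm cells *Grhl2* stood at 40.5 and 53.4 CPM in WT and at 33.3 and 32 CPM in null (log2 difference -0.52, edgeR adjusted p = 0.00498), and in female cells at 36 and 35.4 CPM against 40.3 and 37.3 CPM (0.06, adjusted p = 0.746). The order was the other way round in the gut-like class. Male cells read 21.1 and 19 CPM in WT against 26.8 and 29.8 CPM in null (0.43, edgeR adjusted p = 0.0283), and female cells 26.6 and 24.4 CPM against 21.3 and 20.9 CPM (-0.27, adjusted p = 0.169). The test of the difference between the sexes lost its call for *Grhl2* in 3 of the 4 fits without 1 library in each class, and with DESeq2. These tests called 11.1% of genes in the surface ectoderm class and 7.02% in the gut-like class.

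**Figure D4:**
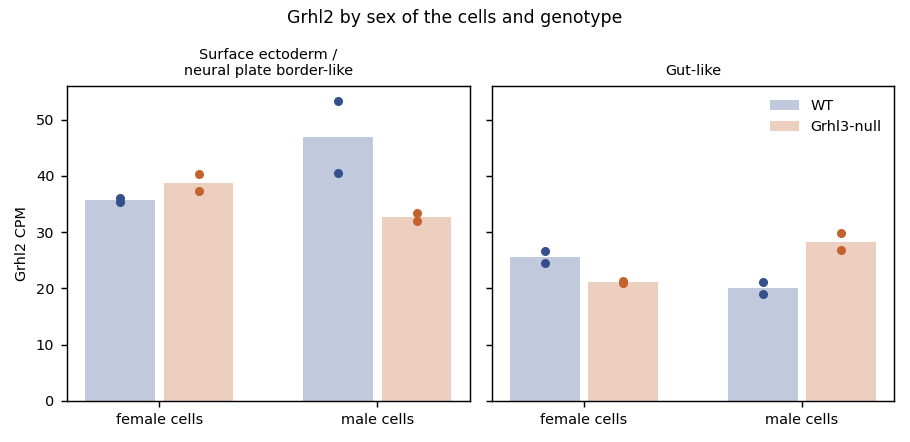
*Grhl2* level in CPM (UMIs scaled by library total, vertical axis) in female and male cells of the surface ectoderm class (left) and the gut-like class (right), by genotype; points are libraries and bars the mean of 2 libraries. In the surface ectoderm class the male WT libraries (40.5 and 53.4) lie above the male null libraries (33.3 and 32), and in the gut-like class they lie below them.

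An antisense gene at the start of *Grhl2* moved where *Grhl2* itself did not pass the test. *Gm16136* (ENSMUSG00000089804) lies on chromosome 15 from 37231793 to 37233309 on the minus strand of mm10 and overlaps the first 274 bases of *Grhl2*. The last exon of each of its 3 annotated transcripts, where counting from the transcript end would place most reads, lies outside *Grhl2*, 208 or more bases away from it. Whether the counting used strand is not given in the sources used here. *Gm16136* was found mainly in the surface ectoderm class, at 23.1 and 22.9 CPM in WT, against 4.11 and 5.25 CPM in the gut-like class. It fell in the surface ectoderm class to 16.9 and 15.9 CPM in the *Grhl3*-null libraries, a log2 difference of -0.52 ± 0.0997 (SE) with an interval of -0.73 to -0.31 (edgeR adjusted p = 0.00105). Gut-like cells of the null libraries read 5.34 and 5.25 CPM (log2 difference 0.15, adjusted p = 0.624), and the difference between the classes passed the test (-0.67, edgeR adjusted p = 0.03). The gene was chosen after the overlap was found. The call in the surface ectoderm was lost with DESeq2 (adjusted p = 0.0668), in male cells (-0.38, edgeR adjusted p = 0.128) and in cells without a *Tfap2c* UMI (-0.36, 0.306).

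Many of the genes that Grainyhead-like factors are known to regulate fell in the *Grhl3*-null surface ectoderm. Of 38 genes in 4 target lists, 24 were called lower (63.2% of the lists against 8.5% of all genes tested) and 3 higher (7.89% against 6.04%). The median log2 difference was -0.39 over the lists and 0.00 over all genes tested. In the gut-like class, where *Grhl2* is the main member in both genotypes, 1 gene of the 38 was called lower and 12 higher (31.6% against 9.81% of all genes), with a median of 0.08, in a comparison that called 10.2% of all genes lower. The visceral endoderm markers of the gut-like class rose from 446 and 510 CPM in sum to 1048 and 1014 CPM in the null libraries, and their part in the higher calls was not tested. The difference between the classes was called for 27 of the 38, all toward lower in the surface ectoderm (5.15% of all genes were called in that direction). The surface ectoderm count differed with the cells taken. Cells without a *Tfap2c* UMI were the shallower ones in WT, as given above, which leaves fewer counts for a call. *Tfap2c* itself fell in the null class, so the split can take different cells in WT and null. In cells with a *Tfap2c* UMI, 148 and 133 in WT and 105 and 118 in null, 24 genes were called lower, where 800 of all 11705 genes tested were. In cells without one, 102 and 88 in WT and 157 and 145 in null, 7 were called lower, where 297 of all 11089 were. With DESeq2, 18 were called lower and 1 higher, where 369 and 191 of all 12086 were. The lists were drawn up with earlier results of these data known.

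Of 16 junction and epithelial genes, 10 were called lower in the surface ectoderm class and 1 higher, where 8.5% and 6.04% of all genes tested were. *Nectin4*, an adherens junction receptor, dropped from 6.48 and 5.55 CPM to 1.06 and 0.869 CPM (log2 difference -2.66 ± 0.273, SE, edgeR adjusted p = 8.03e-07). The tight junction genes *Cldn3* and *Cldn4* fell by 1.61 and 1.43 on the log2 scale, from 44.0 and 41.9 CPM to 13.7 and 15.2 CPM for *Cldn3*. *Rab25*, whose promoter window is shown above, fell by 1.09, from 81.8 and 82.6 CPM to 37.3 and 42.2 CPM. Smaller decreases were seen for the E-cadherin gene *Cdh1* (-0.56), the adhesion gene *Epcam* (-0.37), *Cldn7* (-0.56), *Cldn6* (-0.15), *Jup* (-0.45) and *Tjp3* (-0.43). *Tjp1* rose by 0.22. With DESeq2 the calls of *Cldn6*, *Jup*, *Tjp3* and *Tjp1* were lost (adjusted p = 0.196, 0.158, 0.354 and 0.13), and *Cldn6* was also lost in 3 of the 4 fits without 1 library. In cells without a *Tfap2c* UMI *Cldn6* read 0.15. The desmosomal genes *Dsp* (-0.02), *Dsg2* (-0.18) and *Pkp3* (-0.50), known as *Grhl1* targets or partners of its targets, were not called. None of the 16 was called lower in the gut-like class, where 10.2% of all genes were, and 7 were called higher, where 9.81% were. Among these 7 in the gut-like class were *Cdh1* (0.24), *Jup* (0.37), *Dsg2* (0.48) and *Dsp* (0.28). There *Jup* was lost with DESeq2 (adjusted p = 0.0969) and without WT replicate 1, and *Dsp* without WT replicate 2 (0.16).

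Among 8 splicing and epithelial to mesenchymal transition regulators, 3 were called lower and 1 higher in the surface ectoderm class. Of all genes tested there, 8.5% were called lower and 6.04% higher. *Esrp2*, an epithelial splicing factor, dropped from 11.3 and 12.6 CPM to 3.18 and 3.04 CPM (-1.97), and *Esrp1*, its paralogue, fell by 0.39. *Ovol1*, an epithelial repressor of mesenchymal genes, dropped from 8.82 and 8.21 CPM to 2.95 and 2.35 CPM (-1.71). *Zeb1*, a mesenchymal repressor of epithelial genes, was called higher at 4.75 and 2.33 CPM in WT against 5.29 and 7.30 CPM in null (0.77, edgeR adjusted p = 0.0428), although it reversed to -0.19 when counts were log-normalised before clustering. Without 1 library it ranged from 0.36 to 1.37, and the call was lost without WT replicate 2 (0.36) or *Grhl3*-null replicate 2 (0.53) and with DESeq2 (adjusted p = 0.377). None of the 8 was called in the gut-like class.

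Of 6 protease pathway genes, 5 were called lower in the surface ectoderm class, where 8.5% of all genes were. The prostasin gene *Prss8* fell by 0.64, from 57.2 and 54.7 CPM to 37.1 and 36.3 CPM, and *F2rl1*, which codes for a protease-activated receptor, by 0.90, from 26.9 and 24.6 CPM to 13.2 and 15.2 CPM. The protease gene *St14* (-0.31) and the protease inhibitor genes *Spint1* (-0.28) and *Spint2* (-0.39) fell as well, although the calls of *St14* and *Spint1* were lost with DESeq2 (adjusted p = 0.302 and 0.0719) and without *Grhl3*-null replicate 1, and that of *St14* without WT replicate 1 too. *F2r*, a related receptor gene, was not called (0.09). *Prss8* (0.45) and *F2rl1* (0.62) were called higher in the gut-like class.

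Of 8 epidermal and polarity genes, 6 were called lower and 1 higher in the surface ectoderm class, where 8.5% and 6.04% of all genes were. *Sfn*, the other gene with the Grainyhead letters in its window, dropped from 168 and 134 CPM to 43.4 and 44.8 CPM (-1.82 ± 0.079, SE, edgeR adjusted p = 7e-13), and it was the single target called lower in the gut-like class too (-0.47, adjusted p = 0.0151). That call in the gut-like class was lost with DESeq2 (adjusted p = 0.204), without WT replicate 2 (-0.29) or *Grhl3*-null replicate 1 (-0.40), without the filter on low counts, with a stricter mitochondrial limit and in male or female cells alone. *Tgm1*, the transglutaminase of the cornified envelope, fell by 1.37, and the exchange factor *Arhgef19* by 0.97. *Fermt1* (-0.51) and the simple-epithelium keratins *Krt8* (-0.35) and *Krt18* (-0.51) fell, *Krt8* not with DESeq2 (adjusted p = 0.31), whereas *Krt19* rose by 0.58 in the surface ectoderm class and by 0.46 in the gut-like class. *Vangl2*, a planar polarity gene, read 78.7 and 77.5 CPM in WT and 77.0 and 84.5 CPM in null, with an interval of -0.11 to 0.13 on the log2 difference.

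**Figure D5:**
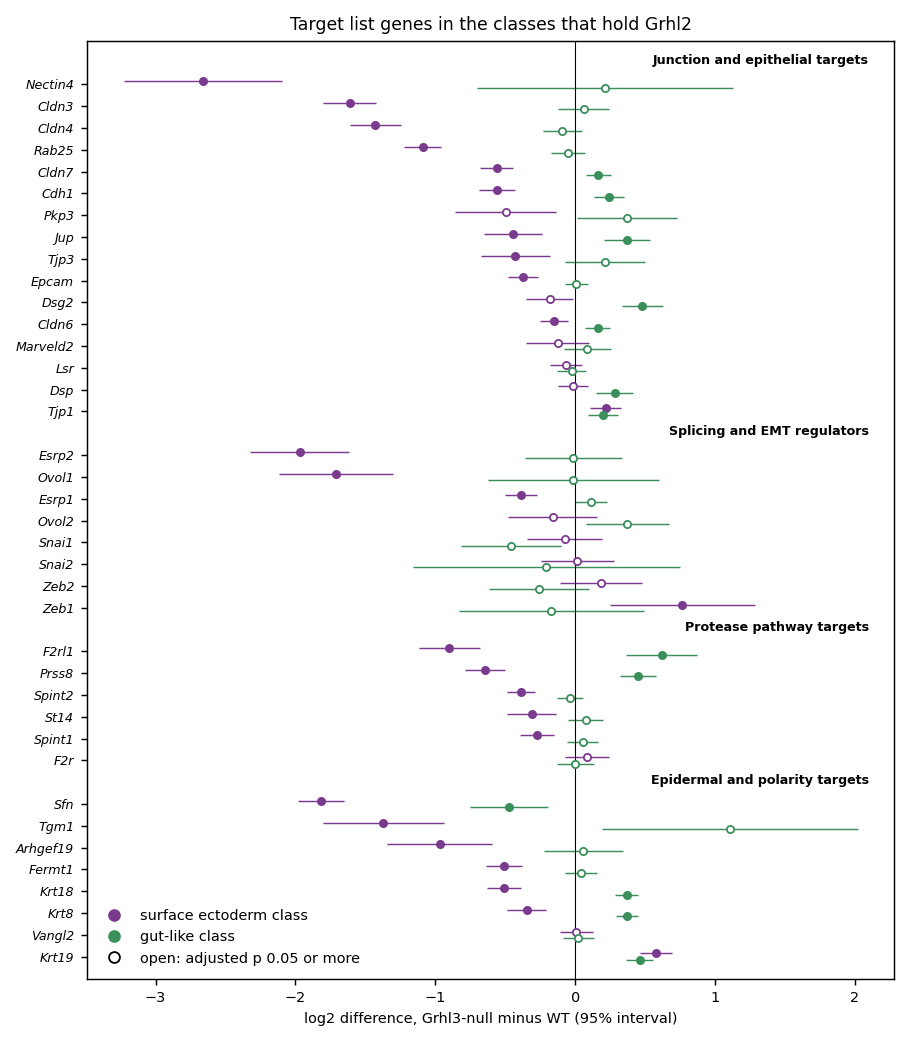
Log2 difference between *Grhl3*-null and WT (horizontal axis, with 95% intervals) of the 38 genes of 4 target lists in the surface ectoderm class and the gut-like class; filled points passed an adjusted p of 0.05. In the surface ectoderm class 24 were called lower and 3 higher, and in the gut-like class 1 lower and 12 higher.

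Of 9 factors known to act upstream of the family or beside it, 4 were called lower in the surface ectoderm class, where 8.5% of all genes were: *Tfap2c* fell by 0.93, from 34.4 and 33.5 CPM to 16.9 and 19.9 CPM, *Klf4* by 0.80, *Klf5* by 0.43 and *Trp63*, the basal epithelial p63 gene, by 0.23. The calls of *Klf4* and *Trp63* were lost with DESeq2 (adjusted p = 0.446 and 0.325) and without *Grhl3*-null replicate 1, and that of *Klf4* also without either WT replicate, without doublets and in female cells. *Tfap2a* (-0.06), *Lmo4*, a known partner of *Grhl3* (-0.07), *Msx1* (-0.11) and *Msx2* (0.10) were not called. In the gut-like class *Tfap2c* could not be tested and none of the other 8 was called lower, where 10.2% of all genes were. The difference between the classes was called for none of the 9 with edgeR at an adjusted p of 0.05, where 9.13% of all genes were called.

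The more distant relatives of the CP2 subfamily were not called in the surface ectoderm class. *Ubp1* read 49.0 and 50.4 CPM in WT and 51.9 and 55.0 CPM in null (log2 difference 0.07), *Tfcp2* 10.1 and 11.5 against 12.8 and 12.9 CPM (0.21), and *Tfcp2l1* 1.88 and 1.93 against 1.59 and 1.83 CPM (-0.20). *Tfcp2l1* rose in the gut-like class from 3.02 and 4.78 CPM to 11 and 12.2 CPM (1.55 ± 0.173, SE, edgeR adjusted p = 1.48e-06). All 8 visceral endoderm markers rose in the same class, with log2 differences from 0.66 for *Apoa2* to 1.51 for *Apob*, of which *Afp*, *Apom* and *Cubn* were not called with DESeq2, and the part of cells from that tissue in the *Tfcp2l1* value was not tested. The same markers summed to 3.62 and 4.99 CPM in WT and to 12.3 and 10.5 CPM in null in the surface ectoderm class, and 3 of the 4 that could be tested were called higher, where 6.04% of all genes were. In WT replicates 1 and 2, 3 and 1 of the 8 markers held no UMI. A marker could thus pass the filter on low counts through the null libraries, which favoured a higher call in advance. Over all cells the markers also rose, from 35.8 and 38.3 CPM in sum in WT to 93.8 and 96.4 CPM in null. The part of free RNA in the surface ectoderm values was not tested.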

How the data were processed

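The authors deposited, per library, a matrix of raw UMI counts per gene and cell, made with Cell Ranger on mm10 per the submitters' processing notes. Cells under 3000 genes or 7500 UMIs, or above 7% mitochondrial UMIs, were dropped, and the rest were clustered in Seurat 5.3.0 (SCTransform, 3000 variable features, 30 components, resolution 0.4), and named from 15 markers per type. Kept libraries held 209833527 to 226723903 UMIs. Counts were summed per class and library and tested with edgeR 4.0.16 (TMM, filterByExpr, quasi-likelihood, Benjamini-Hochberg over all genes tested, 2 libraries against 2). Differences between classes, and between male and female cells, were tested as interactions. There both sums of a library entered as independent, and their pairing by library was not fitted. DESeq2 1.42.0 was an alternative. The tests were run on simulated data first. Scrublet called under 0.5% doublets, so the 5% of cells with the highest scores were removed as an alternative only. Cells were thinned to 7500 UMIs where shares were compared. Genes named were the members, list genes called in either class and otherwise the 3 highest of a list in WT, and the 5 genes most like each member. Values of 1 listed gene are not reported here. The members and lists were chosen with earlier results of these data known. Promoter windows were RefSeq sequences of GRCm38.p6; positions came from GENCODE vM21.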

Additional observations from a re-analysis of the deposited data

Results flagged for a closer look

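*Grhl2* was marked because its genotype difference parted between male and female cells in both classes that hold it. In the surface ectoderm class the difference in male minus female cells was -0.59 on the log2 scale (edgeR interaction, adjusted p = 0.0187, 11.1% of genes called), with both male null libraries below both male WT libraries and both female null libraries above both female WT libraries. In the gut-like class it was 0.70 (edgeR adjusted p = 0.0113, 7.02% of genes called), again with no overlap of the libraries in either sex. Both tests were chosen after the data were seen. With DESeq2 the adjusted p was 0.199 and 0.209. Leaving out 1 library gave -0.77 to -0.37 in the surface ectoderm class, where the call was lost without WT replicate 2 (-0.37, edgeR adjusted p = 0.326), *Grhl3*-null replicate 1 (0.14) or *Grhl3*-null replicate 2 (0.0537). It gave 0.63 to 0.77 in the gut-like class, where the call was lost without WT replicate 1 (edgeR adjusted p = 0.0773), *Grhl3*-null replicate 1 (0.0516) or *Grhl3*-null replicate 2 (0.149). Male and female cells belong to different embryos of small pools, so sex and embryo cannot be told apart.

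A count of 27 of the 38 target list genes was marked because their genotype difference was lower in the surface ectoderm than in the gut-like class by the test of the difference itself. That test called 5.15% of all genes in this direction. *Nectin4* differed the most, by -2.87 on the log2 scale (edgeR adjusted p = 0.00143), and *Cldn3* by -1.67 (5.86e-08). The 8 visceral endoderm markers of the gut-like class summed to 446 and 510 CPM in WT and to 1048 and 1014 CPM in the null libraries, and their part in these differences was not tested. Of the 38, 8 were called lower in the surface ectoderm class and higher in the gut-like class: *Cdh1*, *Cldn6*, *Cldn7*, *F2rl1*, *Jup*, *Krt18*, *Krt8* and *Prss8*. Of all genes tested, 8.5% were called lower in the first class and 9.81% higher in the second. The share of all genes with both calls was not computed, so this count has no background beside it.

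*Tfcp2l1*, a CP2 relative of the family, was marked for a difference of -1.75 between the classes (edgeR adjusted p = 0.004), from its rise in the *Grhl3*-null gut-like class.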

How the results depend on the processing

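Alternatives were fitted over all cells and in the surface ectoderm, gut-like and neuroepithelium-like classes only. The fall of *Grhl3* kept its direction and its call in those that could be fitted; in the gut-like class the filter removed it in male cells, in female cells and without WT replicate 1, and DESeq2 gave no adjusted p there for *Grhl3* or *Grhl1*. *Grhl1* rests on at most 43 UMIs per class and library named above, and its direction changed: over all cells it was -0.11 in male cells and -0.059 to 0.38 without 1 library, in the surface ectoderm class 0.26 in female cells, 0.019 in cells without a *Tfap2c* UMI and -0.60 to 0.059 without 1 library, and in the gut-like class -0.057 in male cells. None of these was called.

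*Grhl2* over all cells passed the threshold without doublets (0.17), in male cells (0.28) and without WT replicate 1 (0.21, range 0.10 to 0.21 without 1 library). In the surface ectoderm class it was -0.52 and called in male cells, 0.062 in female cells and 0.18 in cells without a *Tfap2c* UMI; in the gut-like class it was 0.43 and called in male cells and -0.27 in female cells. The difference between these classes was -0.95 and called in male cells and 0.34 in female cells. In the neuroepithelium-like class the log2 difference was 1.68 with DESeq2, 0.40 at resolution 0.8 and 1.27 to 2.2 without 1 library. The difference by sex was -0.58 and 0.70 with DESeq2 in the surface ectoderm and gut-like classes, and -0.77 to -0.37 and 0.63 to 0.77 without 1 library, where the call was lost in 3 of 4 fits in each class, as it was with DESeq2. The cause of these changes was not tested.

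Thinning each cell to 7500 UMIs moved the WT mean of *Grhl2* in the surface ectoderm class to 31.9 CPM, of *Grhl1* there to 2.27 CPM and of *Grhl3* in the gut-like class to 1.47 CPM. In the surface ectoderm class the excess of detection went from 28.3 to -4.54 percentage points for *Grhl2* by *Grhl3*, from 6.56 to -2.02 for *Grhl1* by *Grhl3* and from 11.1 to -0.963 for *Grhl1* by *Grhl2*; the thinned cells with both genes numbered 12, 0 and 1, too few to read a direction.

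Of the target list genes in the surface ectoderm class, 7 were called lower in cells without a *Tfap2c* UMI (297 of all 11089 genes were), and 1 was called higher with DESeq2 (191 of all 12086 were). In the gut-like class the 1 gene called lower became 0 with DESeq2, in female cells, without the filter on low counts, with a stricter mitochondrial limit and without WT replicate 2 or *Grhl3*-null replicate 1 (0 to 1 without 1 library), and 2 without doublets; the 12 called higher became 7 in female and 7 in male cells. Of all genes tested in the gut-like class, 551 of 11893 were called higher in female cells and 739 of 11965 in male cells. Single genes changed direction: *Cldn6* (0.15) and *Esrp1* (0.11) in surface ectoderm cells without a *Tfap2c* UMI, *Zeb1* (-0.19) with log-normalised counts before clustering, and *Cldn7* (-0.16) in male gut-like cells. Of 856 values of single list genes under the alternatives, 741 kept direction and call, 111 kept the direction alone and 4 reversed.

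Over all genes, DESeq2 called 560 in the surface ectoderm class against 1831, 863 in the gut-like class against 2620, 1221 in the neuroepithelium-like class against 3144, 4015 over all cells against 6097 and 482 for the difference between the first pair of classes against 1224. The surface ectoderm count was 440 in cells without a *Tfap2c* UMI, the gut-like count 903 in female cells, 1691 in male cells, 1214 without the filter, 1705 with the stricter mitochondrial limit and 1719 without *Grhl3*-null replicate 1, the neuroepithelium-like count 484 at resolution 0.8, and the count for the difference 516 to 769 without 1 library.

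With the replicate number as a block, *Grhl2* in the surface ectoderm class was -0.12 and in the gut-like class 0.08, and the block changed no call of a member. Nothing in the labels pairs libraries of the same number, and their deviations correlated at 0.188 over all cells, 0.0734 in the neuroepithelium-like, 0.0478 in the gut-like and 0.00732 in the surface ectoderm class, across 9167 to 9704 genes. Several alternatives, those by sex of the difference, by *Tfap2c*, of the neuroepithelium-like class and of *Gm16136* among them, were chosen after seeing the data.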
